A study of Mus musculus with 20 samples.

Results

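The oligoadenylate synthetase family was followed through 9 genes, Oas1a, Oas1b, Oas1c, Oas1e, Oas1g, Oas2, Oas3, Oasl1 and Oasl2, taken by name out of the 35204 genes of the deposited ileum table. All 9 reached 0.5 CPM (counts scaled to the size of the library) in at least 1 mouse and were tested. RNA-seq of a piece of terminal ileum was available from 20 female C57BL/6 mice, which were 7 weeks old by the study's methods and ate an amino acid diet for 3 weeks. With 5 mice in each group, the diet held tryptophan (control diet, CD) or lacked it (tryptophan-deficient diet, TDD), and each diet was given without or with antibiotics in the drinking water (ABX: ampicillin, vancomycin, gentamycin, metronidazole and neomycin), which gave the groups CD, TDD, CD+ABX and TDD+ABX. The comparisons ask what tryptophan deprivation did to these genes, and whether that held where the microbiota had been reduced with antibiotics.

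Oligoadenylate synthetases are interferon-stimulated proteins that detect double-stranded RNA in the cytosol. The active enzymes then join ATP into short 2′-5′-linked oligoadenylates (2-5A), second messengers of the antiviral response. Several mouse members have lost the enzyme activity and act in other ways, and in the gut wall the family belongs to the interferon-driven antiviral programme of the epithelium and of resident immune cells.

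Libraries held 36676963 to 58662617 estimated counts, and no pair of libraries was identical. CD mouse 2 stood apart: its summed level of 8 enterocyte markers was 18978 CPM, against 33983 to 38881 CPM in the other CD mice, and it had the lowest value of its group in 9 of the 9 Oas genes. The changes against CD are therefore given also without it. The epithelial genes Vil1, Cdh1 and Epcam were high in every library, but the ileal bile acid genes were low without antibiotics: Fabp6, an ileal bile acid-binding protein, ranged from 0.319 to 2.42 CPM in CD and from 0.238 to 3.91 in TDD, against 2.65 to 144 in CD+ABX and 3.34 to 40.8 in TDD+ABX. The same held for Slc10a2, the apical bile acid transporter, at 1.38 to 3.89 CPM in CD and 3.69 to 8.80 in TDD against 16.6 to 86.1 in CD+ABX and 13.2 to 58.3 in TDD+ABX. Alb, the albumin gene, stood in the same tissue list and was higher in TDD than in CD (edgeR, log2 fold change 6.03, SE 1.93, adjusted p = 0.0436). It was lower in TDD+ABX than in TDD (-6.21, SE 1.95, adjusted p = 0.0386). Cyp2e1 of that list changed by 0.77 in TDD against CD (adjusted p = 0.486). The part of the low ileal markers and of Alb in the Oas results was not tested.

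The members lie on chromosome 5 (GRCm38). One cluster holds Oas2 (chr5:120730333-120749853), Oas3 (chr5:120753098-120777661), Oas1e (chr5:120786226-120795530), Oas1c (chr5:120800194-120812514), Oas1g (chr5:120876142-120887613) and Oas1a (chr5:120896256-120907521) on the minus strand and Oas1b (chr5:120812635-120824163) on the plus strand. Oasl2 (chr5:114896936-114912234) and Oasl1 (chr5:114923240-114937915) lie side by side elsewhere on the plus strand. The promoter stretches below are shown because they hold the core of the interferon-stimulated response element. This core was searched on both strands as GAAA, any 2 bases and GAAA, and its part in the changes was not tested. Among the 6 members with a RefSeq promoter window (250 bases before to 50 after the annotated start, GRCm38.p6), 4 held it, namely Oas1a, Oas1c, Oas1g and Oas3, beside 3.44% of all 32851 windows, and the windows of Oasl1 and Oasl2 did not. Each stretch reads 5′ to 3′ on the strand of the named gene, and the capitals mark the element. Oas1a and Oas1g (chr5:120907526-120907625 and chr5:120887614-120887713, both minus strand) carry 2 overlapping copies in the same 16 bases, with first bases 20 and 14 before the start of Oas1a and 18 and 12 before that of Oas1g. The stretch between the divergent starts of Oas1c and Oas1b (chr5:120812515-120812634, read on the plus strand of Oas1b) carries the same 16 bases 22 before the Oas1b start, whereas the single element of Oas3 (chr5:120777680-120777779, minus strand) lies 75 before its start.
Oas1a: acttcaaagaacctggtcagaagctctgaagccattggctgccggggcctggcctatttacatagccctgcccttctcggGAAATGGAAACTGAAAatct
Oas1g: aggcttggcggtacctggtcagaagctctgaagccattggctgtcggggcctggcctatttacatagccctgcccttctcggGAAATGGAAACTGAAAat
Oas1b (shared with Oas1c): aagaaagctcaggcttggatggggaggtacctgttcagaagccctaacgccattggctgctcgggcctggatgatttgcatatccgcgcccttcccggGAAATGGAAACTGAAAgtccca
Oas3: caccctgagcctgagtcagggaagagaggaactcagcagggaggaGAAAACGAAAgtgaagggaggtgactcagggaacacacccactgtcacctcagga

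The exact 16 bases, taken from Oas1a, stood in 7 of the 32851 windows (0.0213%). These belong to 5 genes, Oas1a, Oas1c, Oas1g, Apol9a and Apol9b. Few windows would hold any given 16 bases, so this share does not tell how common paired elements are. Over the 60 bases that end with these 16, Oas1a and Oas1g differed at 1 base, and either differed from the Oas1b stretch at 10. A match of letters is a description and does not show that a factor binds there.

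Per length, the family spanned more than 2 orders of magnitude in the ileum. Levels of different genes are compared here in TPM, a measure scaled to library size and transcript length. In CD, Oasl2 was the highest member at 145 ± 65.5 TPM (SD, n = 5). It was followed by Oas1a at 49.4 ± 23.5, Oas1g at 47.8 ± 23.9 and Oasl1 at 41.5 ± 17.9 TPM, and these 3 differed by less than their spread over mice. Oas3 stood at 26.0 ± 12.5 TPM, within 1 SD of Oasl1, and Oas2 and Oas1b followed at 10.7 ± 7.45 and 10.1 ± 3.21 TPM, which did not differ beyond their spread either. Oas1c at 2.05 ± 0.394 TPM and Oas1e at 0.735 ± 0.571 TPM closed the order. Without CD mouse 2 the CD means ran from 171 TPM for Oasl2 to 0.912 for Oas1e in the same order, and Oas3, at 31.2 ± 4.94 TPM, was below Oasl1, at 48.6 ± 9.41 TPM, by more than their spread.

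In TDD the order changed. Oasl2 still led at 69.6 ± 16.8 TPM, with Oasl1 at 28.6 ± 2.61 TPM above Oas1a at 16.4 ± 6.13 and Oas1g at 14.8 ± 6.09 TPM, which did not differ beyond their spread. Below Oas3 at 8.27 ± 1.98 TPM, Oas1b at 4.83 ± 1.96 TPM was above Oas2 at 1.56 ± 0.742 and Oas1c at 1.55 ± 0.337 TPM, and Oas1e was at 0.0649 ± 0.0406 TPM. Both antibiotic groups had the TDD order at the top, with Oasl1 after Oasl2 and Oas1a and Oas1g within their spread of each other. In CD+ABX the levels were 146 ± 36.1 TPM for Oasl2, 53.1 ± 11.9 for Oasl1, 47.9 ± 11.6 for Oas1g, 46.9 ± 12.0 for Oas1a, 23.0 ± 5.44 for Oas3, 9.26 ± 2.15 for Oas1b, 6.06 ± 1.93 for Oas2, 1.25 ± 0.36 for Oas1c and 0.884 ± 0.699 for Oas1e. In TDD+ABX they were 111 ± 27.5 for Oasl2, 49.7 ± 3.51 for Oasl1, 37.8 ± 9.19 for Oas1g, 36.4 ± 9.02 for Oas1a, 17.7 ± 3.83 for Oas3, 8.35 ± 1.30 for Oas1b, 3.05 ± 0.884 for Oas2, 1.56 ± 0.415 for Oas1c and 0.891 ± 0.704 for Oas1e. In CD+ABX, Oasl1, Oas1g and Oas1a differed by less than their spread, as did Oas1c and Oas1e in both groups. The other family genes in the table, Oas1d, Oas1f and Oas1h, had group means of at most 0.246 CPM and are not followed further.

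**Figure D1:**
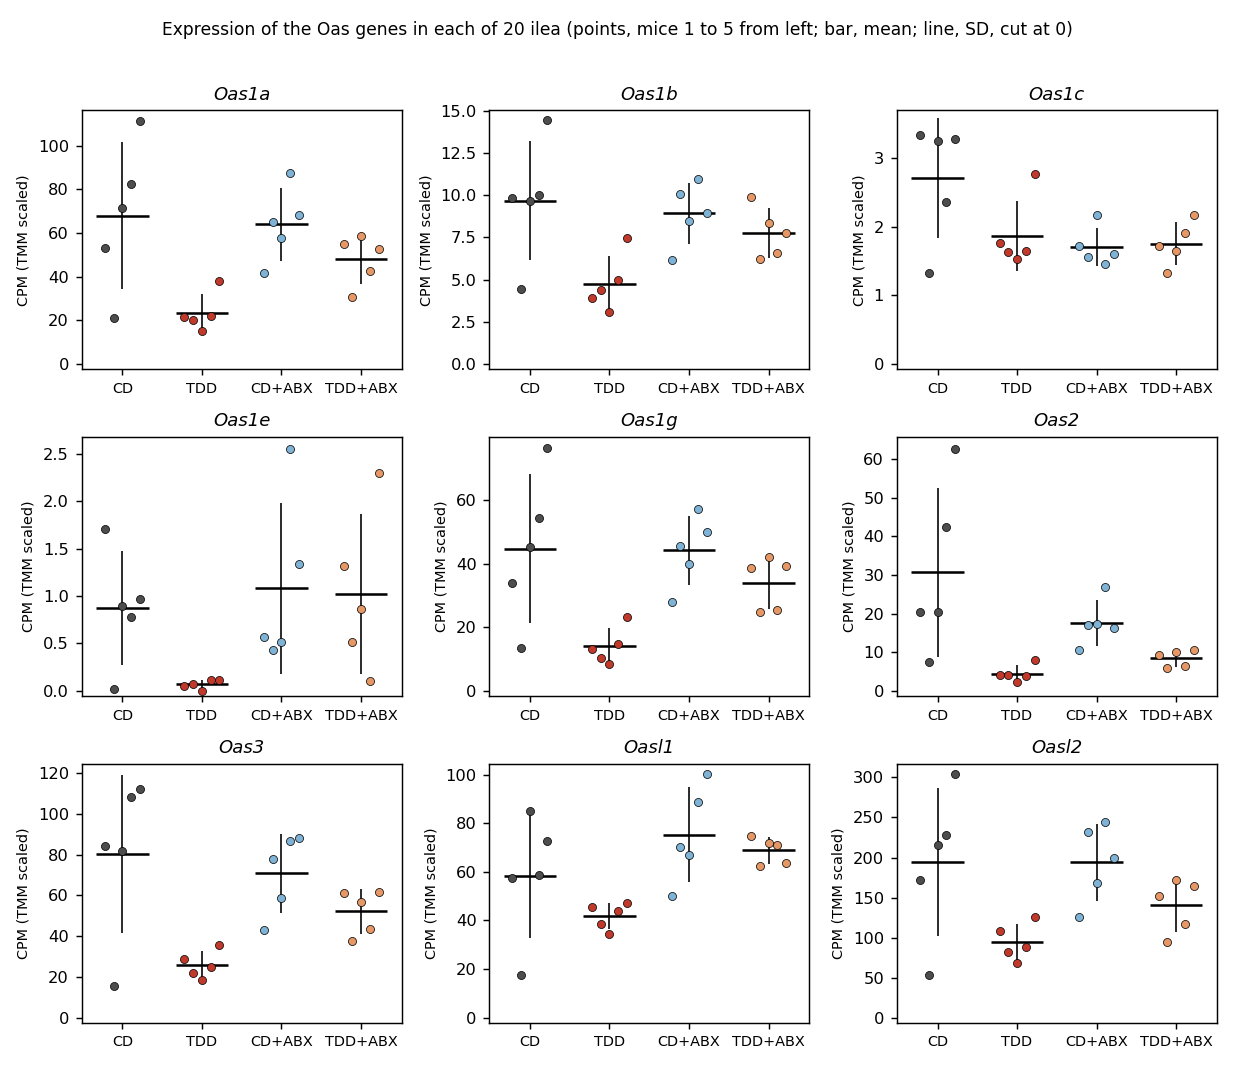
Expression of the 9 Oas genes (vertical axis, CPM scaled by trimmed mean of M-values) in the 4 groups (horizontal axis), with 1 point for each mouse, the mean as a bar and the SD as a line. CD mouse 2 is the lowest CD point in every panel, and TDD mice 3 and 5 are the lowest and highest TDD points in every panel.

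Tryptophan deprivation lowered most of the family in mice without antibiotics. In TDD against CD, 7 of the 9 Oas genes were called lower (edgeR quasi-likelihood test over 16306 genes, Benjamini-Hochberg adjusted p under 0.05 and a change of at least 2-fold), none was called higher, and Oas1c and Oasl1 were not called. Over all genes tested, 1.83% were called in either direction and 0.993% were called lower. The median log2 fold change was -1.54 over the 9 members and 0.01 over all genes. Without CD mouse 2 the same 7 genes were called, and every change was larger. That mouse had the lowest CD value in all 9 genes, so leaving it out must enlarge the falls. This fit is therefore no separate evidence. In bulk tissue, less RNA per cell and fewer cells of a type that makes the RNA cannot be told apart.

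Oas1a and Oas1g encode the synthetases of the Oas1 group in which the enzyme activity is kept. Oas1a measured 53.2, 21.1, 71.5, 82.4 and 111 CPM in CD mice 1 to 5 and 21.4, 20.3, 15.2, 21.9 and 37.9 CPM in the TDD mice. CD mouse 2 fell inside the TDD range, and the other CD mice lay above all TDD mice. Oas1a was 2.91-fold lower in TDD (log2 fold change -1.54, SE 0.34, adjusted p = 0.00571). Oas1g gave 34.0, 13.3, 45.1, 54.5 and 76.4 CPM in CD and 13.2, 10.3, 8.55, 14.8 and 23.1 CPM in TDD, with the same mouse of CD low and the same mouse of TDD high. The fall of Oas1g was 3.19-fold (-1.67, SE 0.36, adjusted p = 0.00462). These 2 genes are near copies: 68.7% of the 31-base words of Oas1a transcripts also occur in Oas1g transcripts and 31.2% are found in no other gene, so the split of reads between them is an estimate, and their levels followed each other with Pearson's r = 0.989 over the 20 mice.

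Oas1b, Oas1c and Oas1e complete the Oas1 group. Oas1b is the flavivirus resistance gene of mice, and laboratory strains such as C57BL/6 carry a truncated form. It measured 9.86, 4.47, 9.64, 10.002 and 14.5 CPM in CD and 3.89, 4.36, 3.09, 4.95 and 7.48 CPM in TDD, where CD mouse 2 lay inside the TDD range and the other CD mice above it. The change was 2.03-fold (-1.02, SE 0.26, adjusted p = 0.0119), just past the fold limit. Oas1c measured 3.33, 1.33, 3.25, 2.36 and 3.28 CPM in CD and 1.76, 1.63, 1.53, 1.65 and 2.77 CPM in TDD. Its groups overlapped through CD mouse 2 and TDD mouse 5, and its change was not called (-0.53, SE 0.22, adjusted p = 0.121). Oas1e was scarce: the CD mice had 62, 1, 45, 34 and 46 estimated counts and the TDD mice 2, 3, 0, 4 and 7. Apart from CD mouse 2, every CD mouse exceeded every TDD mouse, and the fitted change was 12.0-fold (-3.59, SE 0.93, adjusted p = 0.0146), which rests on those few counts.

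Oas2 and Oas3 encode the larger enzymes, built of several synthetase units in tandem, and Oas3 responds to long double-stranded RNA. Among the members above 1 CPM in CD, Oas2 had the largest change. It measured 20.3, 7.58, 20.5, 42.5 and 62.6 CPM in CD and 4.14, 3.99, 2.32, 3.77 and 8.07 CPM in TDD. The groups overlapped only because TDD mouse 5 lay just above CD mouse 2. Oas2 was 6.84-fold lower in TDD (-2.77, SE 0.46, adjusted p = 0.000669). Oas3 gave 84.4, 15.5, 81.7, 108 and 112 CPM in CD and 28.9, 21.7, 18.5, 24.9 and 35.9 CPM in TDD. Here CD mouse 2 was below every TDD mouse and the remaining CD mice were above them all, with a 3.09-fold fall in the fit (-1.63, SE 0.36, adjusted p = 0.0062).

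Oasl1 and Oasl2 encode synthetase-like proteins with ubiquitin-like domains. Oasl1 makes no 2-5A and limits the translation of the interferon regulator Irf7, whereas mouse Oasl2 keeps synthetase activity. Oasl1 measured 57.4, 17.6, 85.1, 58.8 and 72.7 CPM in CD and 45.5, 38.6, 34.5, 43.8 and 47.1 CPM in TDD, so that CD mouse 2 was the lowest and the other CD mice the highest of the 10. Its change was not called (-0.48, SE 0.27, adjusted p = 0.263), and without CD mouse 2 it was -0.72 with an adjusted p of 0.00536, still under 2-fold. Oasl2 measured 171, 53.3, 216, 228 and 304 CPM in CD and 108, 82.2, 68.1, 88.9 and 125 CPM in TDD, with the same arrangement of mice. It was 2.06-fold lower in TDD (-1.04, SE 0.32, adjusted p = 0.037).

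Single mice decided how the groups separated and which of the smaller changes were called. With all mice, 0 of the 9 genes had every TDD value below every CD value, where 4.9% of all genes did. Without CD mouse 2, an alternative chosen after seeing the data, 8 of 9 did, all but Oas1c, where 10% of all genes did. That mouse was the lowest of CD in each of the 9, which favours this separation. The genes behind the 10% were not selected in that way. In that fit Oas2 changed by -3.03 (adjusted p = 7.41e-05), Oas3 by -1.90 (3.61e-05) and Oas1a by -1.78 (0.00029) on the log2 scale. Oas1g changed by -1.91 (0.000295), Oasl2 by -1.29 (0.000767), Oas1b by -1.22 (0.000862) and Oas1e by -3.91 (0.00299), and Oas1c by -0.72 (0.0101), still under 2-fold. Oas1a, Oas1e, Oas1g, Oas2 and Oas3 stayed called in TDD against CD with any 1 of the 20 mice left out. Oas1b dropped under 2-fold when mouse 5 of CD or any of mice 1 to 3 of TDD was left out (smallest log2 fold change -0.85), and the call of Oasl2 was lost when any of mice 3 to 5 of CD or mice 2 to 4 of TDD was omitted. The fit with the replicate number as a block also lost Oasl2, and limma-voom lost Oas1b, Oas1e and Oasl2.

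**Figure D2:**
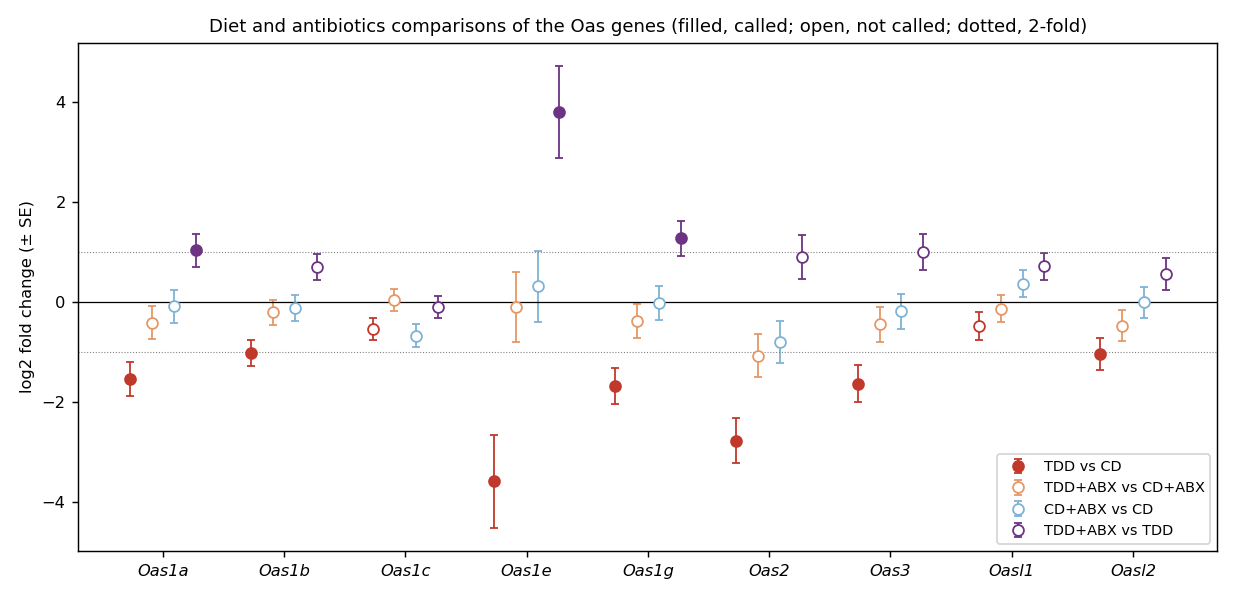
Log2 fold change with its SE (vertical axis, edgeR, 20 mice) of each Oas gene (horizontal axis) in 4 comparisons; filled points are called, open points are not, and dotted lines mark 2-fold. The changes of TDD against CD lie between -3.59 and -0.48, and those of TDD+ABX against CD+ABX between -1.07 and 0.04.

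Under antibiotics the 9 genes differed less between the diets, and no change was called. In TDD+ABX against CD+ABX, edgeR called 0 of 9 members beside 0.307% of all genes, and DESeq2 and limma-voom also called 0 of 9. At an unadjusted p under 0.05 stood 1 member, Oas2, beside 14.7% of all genes, and the median change was -0.38 over the members and -0.00 over all genes. Oas2 measured 10.6, 16.9, 17.2, 26.9 and 16.3 CPM in CD+ABX and 9.16, 5.89, 10.05, 6.35 and 10.5 CPM in TDD+ABX. All TDD+ABX mice were below all CD+ABX mice, by a narrow margin between the closest pair. Of all genes, 2.43% were lower throughout in this way, and Oas2 was the 1 member. Its change of -1.07 (SE 0.43) had an adjusted p of 0.241.

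The remaining members overlapped between the antibiotic-treated diets. Oas1a measured 41.7, 65.0, 57.6, 87.4 and 68.1 CPM in CD+ABX and 55.1, 30.8, 58.8, 42.6 and 52.9 CPM in TDD+ABX, a change of -0.41 (SE 0.33, adjusted p = 0.605). Oas3 measured 43.2, 77.8, 58.9, 86.4 and 88.1 CPM in CD+ABX and 61.1, 37.7, 57.0, 43.4 and 61.9 CPM in TDD+ABX, a change of -0.44 (adjusted p = 0.606). In both genes CD+ABX mouse 1 and TDD+ABX mouse 2 were the low mice, and no TDD+ABX mouse came near the highest CD+ABX mice. Oas1g measured 28.1, 45.7, 39.9, 57.2 and 49.9 CPM in CD+ABX and 38.5, 24.8, 42.1, 25.5 and 39.3 CPM in TDD+ABX, a change of -0.38 (adjusted p = 0.662). Oasl2 measured 126, 231, 168, 245 and 199.9 CPM in CD+ABX and 152, 94.5, 172, 118 and 164 CPM in TDD+ABX, a change of -0.47 (adjusted p = 0.529). Again the lowest mouse of each group was the same as for Oas1a and Oas3.

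The other Oas1 genes and Oasl1 were closer still. Oas1b measured 6.17, 10.1, 8.50, 10.96 and 8.94 CPM in CD+ABX and 9.88, 6.25, 8.35, 6.57 and 7.78 CPM in TDD+ABX (-0.20, adjusted p = 0.764). Oas1c lay between 1.46 and 2.17 CPM in CD+ABX and measured 1.72, 1.32, 1.65, 1.91 and 2.18 CPM in TDD+ABX (0.04, adjusted p = 0.953). Both pairs of groups covered nearly the same range. Oasl1 gave 50.1, 70.2, 67.0, 88.9 and 100.1 CPM in CD+ABX, around the narrow TDD+ABX range of 62.4 to 74.8 CPM (-0.13, adjusted p = 0.869). Oas1e varied most between mice, with 26, 18, 25, 131 and 71 estimated counts in CD+ABX and 5 to 96 in TDD+ABX (-0.10, SE 0.70, adjusted p = 0.964).

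Whether the diet effect itself differed with antibiotics was tested as an interaction. It was above 0 in all 9 members, meaning a smaller fall or a rise under antibiotics, with a median of 1.12 on the log2 scale. No member was called in edgeR, where 0.0245% of all genes were, and the lowest adjusted p of a member was 0.332. DESeq2 and limma-voom also called 0 of 9. At an unadjusted p under 0.05 stood 6 of the 9, beside 8.87% of all genes. Oas1e had an interaction of 3.49 (SE 1.18, adjusted p = 0.332), Oas2 of 1.70 (SE 0.61, adjusted p = 0.363), Oas1g of 1.30 (adjusted p = 0.405) and Oas1a of 1.12 (SE 0.47, adjusted p = 0.471). Leaving out CD mouse 2, the lowest CD mouse in every member, by construction made the interactions larger. They then lay between 0.60 for Oasl1 and 3.82 for Oas1e, and again none was called. The lowest adjusted p was then 0.0612, for Oas3 at 1.47.

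Antibiotics on the control diet left the members without a called change. In CD+ABX against CD, edgeR, DESeq2 and limma-voom each called 0 of 9, while edgeR called 2.25% of all genes. At an unadjusted p under 0.05 stood 1 member, Oas1c, beside 26.5% of all genes. Oas1c measured 1.72, 1.56, 2.17, 1.46 and 1.60 CPM in CD+ABX, below 4 of the 5 CD mice and above CD mouse 2, a change of -0.67 (SE 0.22, adjusted p = 0.0556). Without CD mouse 2 it was -0.84 (adjusted p = 0.00491), under 2-fold, and its groups no longer overlapped, as for 9.51% of all genes that were then lower throughout. Oas2, at -0.80 (SE 0.42, adjusted p = 0.239), had overlapping groups, and without CD mouse 2 it was -1.05 (adjusted p = 0.0608). The other 7 then lay between -0.44 for Oas3 and 0.14 for Oasl1, with 0.194 as the lowest adjusted p.

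Antibiotics on the tryptophan-deficient diet went with higher levels of 3 members. In TDD+ABX against TDD, Oas1a, Oas1e and Oas1g were called higher, beside 1.63% of all genes called in either direction and 0.368% called higher, and the median change was 0.90 over the members and -0.03 over all genes. Oas1g measured 38.5, 24.8, 42.1, 25.5 and 39.3 CPM in TDD+ABX, above all TDD mice, and was 2.43-fold higher (1.28, SE 0.35, adjusted p = 0.0225). For Oas1e the TDD+ABX mice had 64, 26, 42, 5 and 96 estimated counts, and the mouse with 5 lay inside the TDD range. It was 13.99-fold higher in the fit (3.81, SE 0.93, adjusted p = 0.0115). Oas1a was 2.05-fold higher (1.04, SE 0.34, adjusted p = 0.044), with TDD+ABX mouse 2 below TDD mouse 5.

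Which of these calls held depended on the setting. Oas1e was called with any 1 of the 20 mice left out, but not with limma-voom (3.47, adjusted p = 0.108), and with limma on log2(TPM + 1) it changed by 0.75, under 2-fold on that scale. Oas1g lost its call when mouse 2 or 3 of TDD or mouse 1 or 3 of TDD+ABX was left out. Oas1a lost it when mouse 3 or 4 of CD, any of mice 1 to 4 of TDD, mouse 3 of CD+ABX, or mouse 1, 3 or 5 of TDD+ABX was left out, and also with limma-voom (adjusted p = 0.0522) and without a filter (0.0793). Oas3 came close (1.01, SE 0.36, adjusted p = 0.0647) and was called without CD mouse 2 (1.03, adjusted p = 0.0039). The values of Oas1g, Oas3 and Oasl1 were higher in every TDD+ABX mouse than in any TDD mouse, beside 5.97% of all genes that were higher throughout. Oasl1 measured 74.8, 62.4, 71.8, 71.2 and 63.8 CPM in TDD+ABX, a change of 0.72 against TDD with an adjusted p of 0.0809.

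The crossed comparisons share their mice with those above and are given for completeness. In TDD+ABX against CD, Oas2 alone was called (3.67-fold lower, -1.87, SE 0.44, adjusted p = 0.00512), beside 2.81% of all genes in either direction and 1.88% lower, and it stayed called without CD mouse 2 (-2.11, adjusted p = 0.000594). The other 8 members then lay between -0.87 for Oas3 and 0.02 for Oasl1. In TDD against CD+ABX, 6 of 9 were called lower, beside 4.08% of all genes in either direction and 0.975% lower. These were Oas1a (-1.45), Oas1e (-3.91), Oas1g (-1.66), Oas2 (-1.97), Oas3 (-1.45) and Oasl2 (-1.04). Every TDD value lay below every CD+ABX value in 7 of 9 members, all but Oas1b and Oas1c, beside 8.1% of all genes that were lower throughout. Leaving out mouse 2 or 3 of TDD, or mouse 2 or 4 of CD+ABX, ended the call of Oasl2 there, and leaving out mouse 5 of TDD or mouse 1 of CD+ABX added Oas1b.

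The members kept different proportions to each other in the 4 groups. The log2 ratio of Oas2 to Oas3 in TPM within a mouse averaged -1.31 in CD (from -1.96 to -0.72), -2.50 in TDD (-3.00 to -2.01), -1.94 in CD+ABX (-2.32 to -1.56) and -2.56 in TDD+ABX (-2.71 to -2.33). On both water regimes the ratio of every TDD-fed mouse lay below that of every CD-fed mouse, with narrow gaps between the closest mice. The share of all gene pairs that separate in this way was not computed. Oas2 to Oasl2 showed the same separation, at -3.87 (-4.56 to -3.32) in CD against -5.57 (-6.05 to -5.08) in TDD, and at -4.61 (-4.88 to -4.35) in CD+ABX against -5.20 (-5.38 to -5.11) in TDD+ABX. CD mouse 2, the lowest CD mouse in each of the genes, had the highest ratio of Oas2 to Oas3. The 2 other pairs computed did not separate the diets in this way. Oas3 to Oasl2 averaged -2.56 in CD and -3.07 in TDD, but under antibiotics it ran from -2.79 to -2.43 in CD+ABX and from -2.80 to -2.53 in TDD+ABX. Oasl1 to Oasl2 was higher in the TDD-fed mice on average, at -1.77 in CD and -1.26 in TDD, and -1.45 in CD+ABX and -1.12 in TDD+ABX, with overlapping groups. The ratio of Oas1g to Oas1a stayed between -0.36 and 0.26 in all 20 mice. These ratios were chosen with the fold changes known and are a description without a test.

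**Figure D3:**
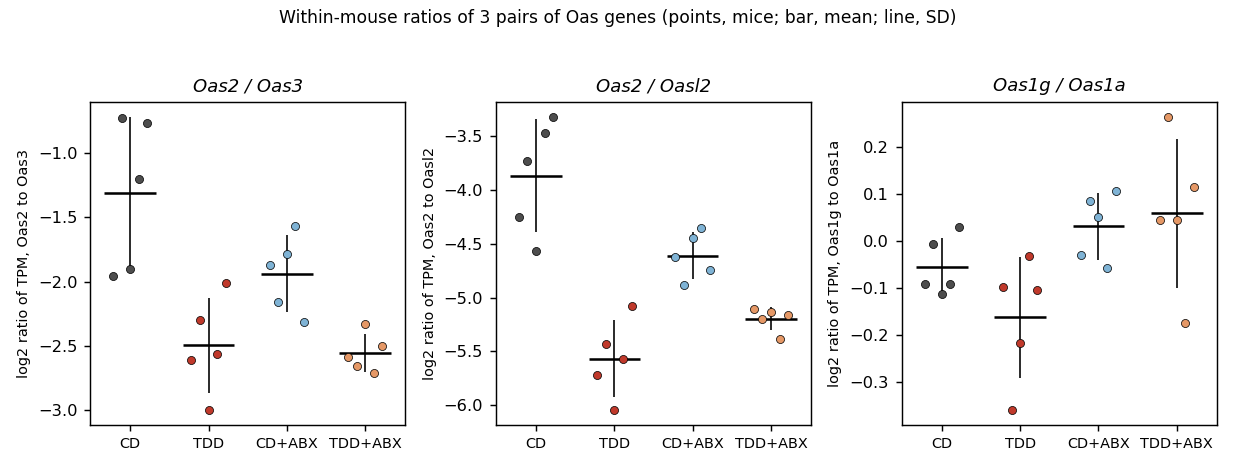
Log2 ratio of TPM between Oas genes in the same mouse (vertical axes) for Oas2 to Oas3, Oas2 to Oasl2 and Oas1g to Oas1a, in the 4 groups (horizontal axes); points are mice, bars means and lines SD. The first 2 ratios are lower in each TDD-fed group than in the CD-fed group on the same water, and the third stays near 0.

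Across all 20 mice the levels of the members were correlated, least for Oas1c. The median Pearson correlation of a member with the other 8 on log2 CPM was 0.94 for Oas1a, 0.92 for Oas1g, 0.909 for Oas3 and Oas1b, 0.892 for Oasl2, 0.877 for Oas2, 0.824 for Oas1e, 0.775 for Oasl1 and 0.5 for Oas1c. With group means removed, Oas1c correlated with the other 8 at 0.544 to 0.699, above its correlation over all mice with each of them. These points share their libraries and, in the first case, the group differences, and Oas1a and Oas1g share sequence. Among mice of the same group, TDD mouse 3 was lowest and TDD mouse 5 highest in 9 of 9 members, and TDD+ABX mouse 2 was lowest in 8 of 9.

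Transcript estimates showed which forms of the genes carried the changes. Of the members' transcripts, 28 passed the filter among 51522 tested. In TDD against CD, 9 of the 28 were called lower, beside 0.937% of all transcripts in either direction and 0.477% lower. They were Oas1a-201, Oas1b-203, all 3 of Oas1g, Oas2-201, Oas2-202, Oas3-201 and Oas3-204. The main Oas2 form, Oas2-201, fell 8.31-fold (-3.06, adjusted p = 0.0011) and Oas2-202 fell 5.95-fold (-2.57, adjusted p = 0.0174). Leaving out CD mouse 5 left 6 member transcripts called, and leaving out CD mouse 2 gave 14. Between TDD+ABX and TDD, Oas1g-203 alone was called (1.34, adjusted p = 0.0459), beside 0.415% of all transcripts, and it kept the call in 5 of the 20 fits with 1 mouse left out, namely those that omitted mouse 2 or 5 of CD, mouse 5 of TDD, mouse 1 of CD+ABX and mouse 4 of TDD+ABX. The test does not model the uncertainty of assigning reads to transcripts.

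Much of the signal of Oas1g and Oasl2, and all of that of Oas1b, came from transcripts that the annotation (GENCODE M21) does not type as protein-coding. For Oas1g, such transcripts held 84.9 ± 1.86% of the TPM in CD, 87.4 ± 1.95% in TDD, 85.9 ± 0.977% in CD+ABX and 86.6 ± 1.81% in TDD+ABX (SD, n = 5). Of the 31-base words of Oas1g transcripts, 54.6% also occur in Oas1a. The SD over mice does not cover the uncertainty of assigning such reads. Oas1g-203, typed as a target of nonsense-mediated decay, made up 52.3% in CD and 53.0% in TDD, and Oas1g-202, which retains an intron, 32.6% and 34.4%. The coding form Oas1g-201 contributed 15.1% in CD and 12.6% in TDD. For Oasl2 the share outside coding transcripts was 64.4 ± 2.65% in CD, 67.1 ± 2.85% in TDD, 63.2 ± 1.33% in CD+ABX and 63.1 ± 1.76% in TDD+ABX. The make-up was thus close between groups while the totals moved. In Oas2, Oas2-201 held 61.7 ± 10.6% in CD and 46.8 ± 6.56% in TDD, where the gene itself stood at 1.56 TPM and few reads decide the share.

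**Figure D4:**
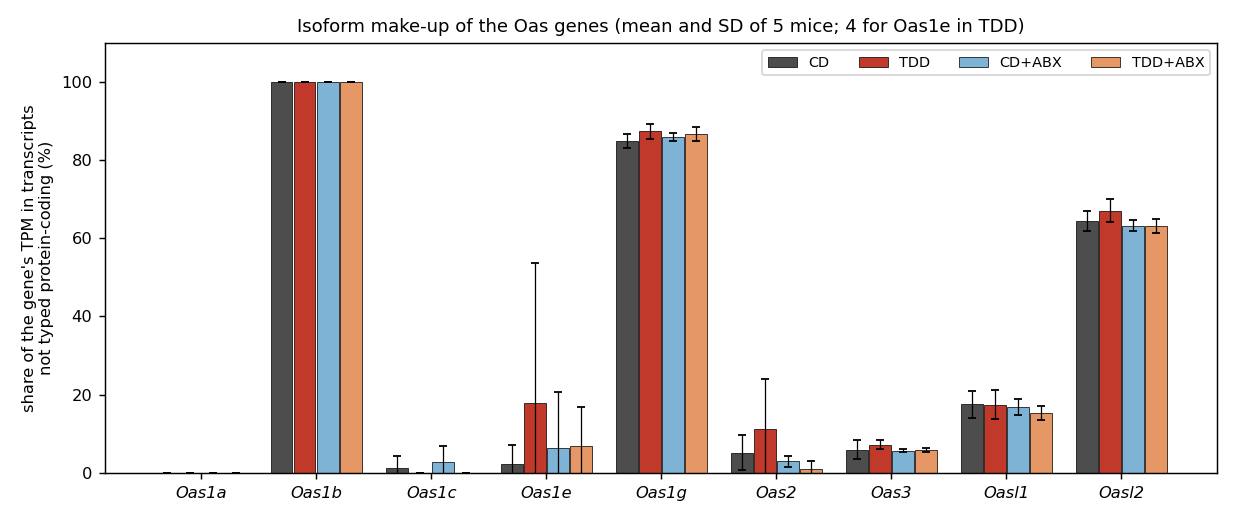
Share of each Oas gene's TPM in transcripts not typed as protein-coding (vertical axis, percent, from 0) for each gene (horizontal axis) and group; bars are means and lines SD of 5 mice, or of 4 for Oas1e in TDD, where 1 mouse had no Oas1e reads. The share is 0 for Oas1a, 100 for Oas1b, and near 86 for Oas1g and 64 for Oasl2 in each group.

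All of the Oas1b signal fell on transcripts not typed as protein-coding. Oas1b-203, typed as a polymorphic pseudogene, made up 63.2% of the TPM in CD and 63.7% in TDD, Oas1b-202 the remainder, and the protein-coding model Oas1b-201 was 0 in all 20 mice. The stretches of exon below (GRCm38, plus strand) show where the models part and where the truncated protein ends. The coding model leaves out 3 single bases of the genome in exon 3 (capitals in chr5:120817659-120817693), and 40 of its 1802 31-base words occur in no other Oas1b transcript. The frame of Oas1b-203 meets a stop codon in exon 4 of 6 after 252 codons (capitals in chr5:120821293-120821322), at the same position as the annotated stop of Oas1b-201.
Oas1b exon 3: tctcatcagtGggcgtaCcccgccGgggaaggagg
Oas1b exon 4: acagcccagggcttcTGAaccgtcttggaa

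None of 4 genes linked to 2-5A was called between the diets. These were Pde12, which encodes a phosphodiesterase that degrades 2-5A, and Abce1, Enpp1 and Akap7. All 4 were tested, and edgeR, DESeq2 and limma-voom each called 0 of them in TDD against CD, where 0 also had an unadjusted p under 0.05 and the median change was -0.04. The 3 tools again called 0 of the 4 in TDD+ABX against CD+ABX, with 1 at an unadjusted p under 0.05, Enpp1 (-0.32, adjusted p = 0.0545). Enpp1 was singled out after its value was seen. The changes of the 4 in TDD against CD lay between -0.16 for Enpp1 and 0.08 for Pde12.

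The interferons that induce the family were at or near 0. Of 20 interferon genes in the table, 0 reached 0.5 CPM in any mouse, and the most counts in any mouse were 10 for Ifng and 9 for Ifna16, while Ifnb1 was at 0 in all 20. The 21 interferon receptors and signalling genes had a median change of -0.08 in TDD against CD. Of these, 2 were called lower and 1 higher, beside 1.83% of all genes called in either direction. The lower ones were the ubiquitin-like modifier Isg15 (-1.49, adjusted p = 0.0116) and Usp18 (-1.5, adjusted p = 0.00946), which removes Isg15 from proteins and dampens receptor signalling, and both are themselves interferon-stimulated. The higher one was Socs3, a cytokine signalling inhibitor (2.03, adjusted p = 1.73e-05).

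The 13 genes for sensors of double-stranded RNA and their partners had a median change of -0.17 in TDD against CD. Of these, 2 were called lower, beside 0.993% of all genes. These were Dhx58 (-1.09, adjusted p = 0.0182), a helicase that tunes RIG-I-like receptor signalling, and Zbp1 (-1.67, adjusted p = 0.00228), a sensor of Z-form nucleic acid. Under antibiotics, TDD+ABX against CD+ABX, edgeR and limma-voom called 0 genes of the receptor and sensor lists. In edgeR, 2 and 3 of their genes had an unadjusted p under 0.05, beside 14.7% of all genes. DESeq2 called 0 of the receptor list and 1 of the sensor list, Zbp1, which changed by -1.24 in edgeR (adjusted p = 0.0576).

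**Figure D5:**
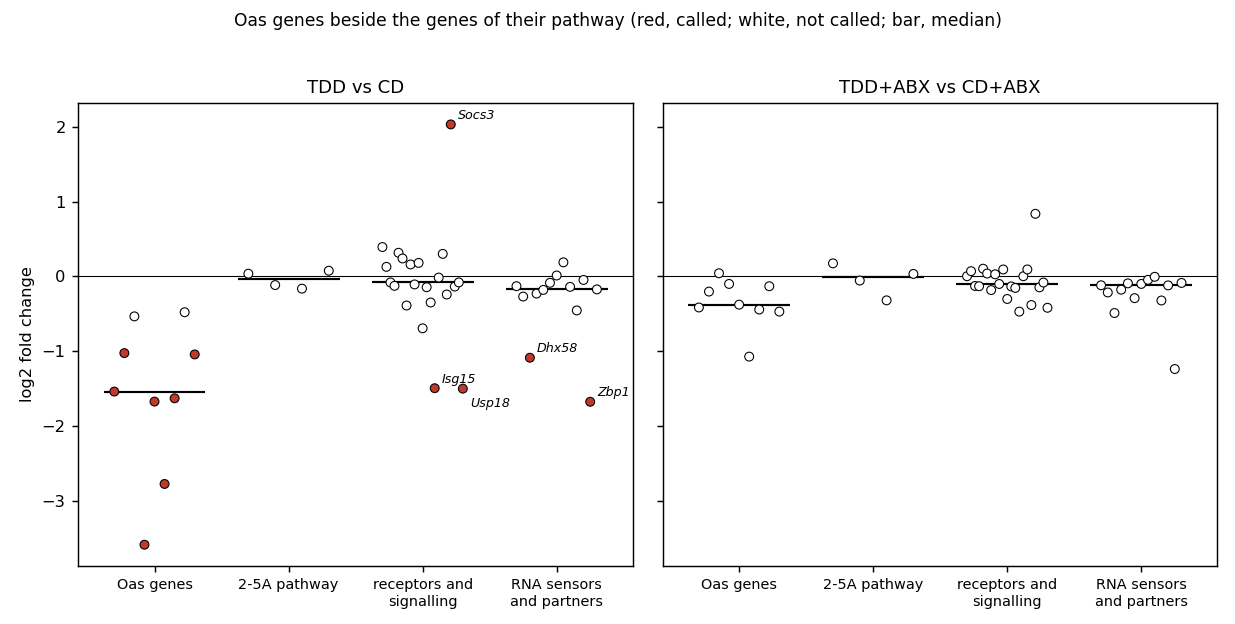
Log2 fold change (vertical axis) of the 9 Oas genes and of each tested gene of the 2-5A, receptor and signalling, and RNA sensor lists (horizontal axis), in TDD against CD and in TDD+ABX against CD+ABX; red points are called, white points are not, and bars are medians. In TDD against CD the Oas median is -1.54 and the list medians lie between -0.17 and -0.04.

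The genes outside the family whose levels most resembled it were interferon-stimulated genes too. Among 16295 genes compared with the mean standardised pattern of the 8 members above 1 CPM over 20 mice, the 10 with the highest Pearson correlation were Usp18 (0.981), Isg15 (0.976), Rtp4 (0.97), Lgals3bp (0.966), Dhx58 (0.954), Rsad2 (0.95), Ifit1 (0.942), Samd9l (0.939), Herc6 (0.938) and Ifi27l2b (0.933). They were chosen for this pattern over all 20 mice, which holds the differences between the groups, so their changes are a description and no separate evidence. With group means removed, their correlations were between 0.905 and 0.977, and 7 of the 10 were also among the 10 highest by Spearman's correlation. In TDD against CD, the changes of Dhx58, Herc6, Ifit1, Isg15, Rsad2 and Usp18 lay between -1.56 and -1.09. The other 4, Ifi27l2b, Lgals3bp, Rtp4 and Samd9l, changed by -0.57 to -0.87, under 2-fold. Between the diets under antibiotics the changes of the 10 lay between -0.70 and -0.19.

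Cell type markers were set beside the fall of the Oas genes in TDD against CD. The 8 enterocyte markers summed to 18978 to 38881 CPM in CD and 34354 to 40358 in TDD, and 0 were called by edgeR, DESeq2 or limma-voom, with 1 at an unadjusted p under 0.05. The 8 macrophage and dendritic cell markers summed to 174 to 223 CPM in CD and 87.2 to 177 in TDD, lower in TDD with a narrow overlap, and 0 of the 8 were called by the same tools, with 5 at an unadjusted p under 0.05, beside 28.4% of all genes. Of these, Adgre1 (-0.77, adjusted p = 0.00179), Csf1r (-0.58, adjusted p = 0.00573) and Cd68 (-0.50, adjusted p = 0.0193) passed the adjusted threshold at less than 2-fold. The remaining markers lay between -0.37 for Clec9a and 0.05 for Xcr1, each with an adjusted p above 0.05. The median of the 8 was -0.35 in TDD against CD, where the Oas median was -1.54. In CD+ABX against CD the median of these markers was -0.51, and in TDD+ABX against TDD it was -0.35. Plasmacytoid dendritic cells are strong interferon producers, and their 4 markers summed to 36.5 to 65.3 CPM in CD and 17.8 to 27.4 in TDD. That difference lay in Klk1, a kallikrein (33.8 to 62.6 against 15.2 to 23.3 CPM, log2 fold change -1.15, adjusted p = 0.00232), whereas the defining receptor Siglech measured 1.16 to 1.54 CPM in CD and 0.828 to 1.65 in TDD, Cox6a2 was at most 0.414 CPM, and Pacsin1 measured 1.06 to 2.56 CPM in CD and 1.73 to 3.21 in TDD (0.57, adjusted p = 0.165). T cell and intraepithelial lymphocyte markers summed to 43.6 to 199 CPM in CD (median 65.9) and 53.0 to 61.0 in TDD (median 56.9). Their median change was -0.74, with 4 of 8 at an unadjusted p under 0.05. Of the 8, edgeR called 1 lower, Nkg7 (-1.21, adjusted p = 0.0125), DESeq2 called 2 and limma-voom 0. The median of these 8 was -1.47 in CD+ABX against CD and -0.82 in TDD+ABX against TDD. In TDD against CD the 4 goblet cell markers had a median of -0.23 and 0 calls, with Clca1 at -0.98 (adjusted p = 0.000619). B cell markers summed to 4.99 to 110 CPM in CD and 5.32 to 170 in TDD. The part of these cells in the levels of the Oas genes was not tested.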

How the data were processed

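Per the labels and the study's methods, poly-A RNA from terminal ileum was sequenced and the authors quantified reads with kallisto 0.44.0 against GRCm38. They deposited a gene table of estimated counts and, for each mouse, transcript abundances as estimated counts and TPM. No batch or date was given in the sources used here. Of the 35204 genes, the 16306 that reached 0.5 CPM in any of the 20 mice were tested with edgeR 4.0.16 (R 4.3.3). Counts were rounded, libraries scaled by TMM, and 4 groups of 5 fitted in 1 quasi-likelihood model. Called means a Benjamini-Hochberg adjusted p under 0.05 and at least 2-fold, the limits of the study, whose test is not named. DESeq2 1.42.0, limma 3.58.1 (voom, and log2(TPM + 1)), other filters and scaling, a replicate block and leaving out each mouse were alternatives. The scripts were tested on simulated data. Transcripts were matched to GENCODE M21 (98.38%), promoter sequences come from RefSeq (GRCm38.p6), and exon sequences from GENCODE transcripts. CPM in the text are TMM scaled. Depth was 36676963 to 58662617 counts per mouse. Named genes were the members, genes of fixed lists called in a diet or antibiotic comparison, the interferons, and the 10 genes most like the family, and 2 genes that this rule would name are not reported here. Markers, tissue genes and the 4 genes linked to 2-5A were named outside this rule, with their values seen. The members and lists were chosen with earlier results of these data known.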

Additional observations from a re-analysis of the deposited data

Results flagged for a closer look

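Of 36 tests of a single mouse within a group of 5 (9 genes in 4 groups), 1 found a value far from the others. Oas1c in TDD mouse 5 was 2.77 CPM, while the other TDD mice had 1.53 to 1.76 CPM, and its gap was 0.819 of the group's range against a limit of 0.71. Chance alone gives about 1 such value in 20 tests. The same mouse was the highest of its group in 9 of 9 members.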

How the results depend on the processing

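Of 1818 recomputed values of single members, 1730 kept their direction and their side of the threshold, 44 lost the call, 5 gained one and 39 changed sign. In TDD against CD, 4 members were called with limma-voom and 4 with limma on log2(TPM + 1), against 7, and in TDD+ABX against TDD limma-voom called 1, against 3. Oasl2 in TDD against CD also lost its call without a filter, and Oas1b and Oasl2 lost theirs with only those 2 groups fitted. The cause of these differences was not tested.

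Over all genes, dropping the fold limit gave 2342 calls in TDD against CD, 268 in TDD+ABX against CD+ABX, 2060 in CD+ABX against CD, 2505 in TDD+ABX against TDD, 3556 in TDD+ABX against CD and 4120 in TDD against CD+ABX, and limma on log2(TPM + 1) gave 140, 25, 131, 98, 201 and 258. DESeq2 called 98 genes in TDD+ABX against CD+ABX. For the interaction DESeq2 called 51 genes, against 4, and 0 were called with limma-voom, RLE scaling, 0.5 CPM in at least 5 mice, no filter, the replicate block or summed transcript counts. Among transcripts in TDD+ABX against TDD, limma on log2(TPM + 0.1) called 4 of the members' and 365 in all, and 0.5 CPM in at least 5 mice called 2 of the members'.

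None of the changes that switched sign was called. In CD+ABX against CD, Oas1a was 0.068, 0.031 and 0.056 on the log2 scale with limma-voom, the replicate block and limma on TPM, and Oas1g was 0.15, 0.11 and 0.14. Oas3 was 0.044 with limma-voom and 0.035 with limma on TPM. Oasl2 was 0.0036 with DESeq2, 0.17 with limma-voom, 0.0035 with RLE scaling, 0.0029 with the filter in 5 mice, 0.0010 with no filter, 0.11 with the block, 0.00093 with summed transcripts and 0.17 with limma on TPM. Oas1c in TDD+ABX against TDD was 0.0033 with limma on TPM.

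With 1 mouse left out, the genes called ranged from 25 to 59 in TDD+ABX against CD+ABX (lowest without CD+ABX mouse 4). In TDD+ABX against TDD they ranged from 163 to 421 (without TDD+ABX mouse 1 and mouse 5). For the interaction they ranged from 0 to 12 (0 without CD mouse 1 and without many other mice, 12 without CD+ABX mouse 4). Members called in TDD+ABX against TDD were 1 without mouse 2 or 3 of TDD or mouse 1 or 3 of TDD+ABX. They were 4 without CD mouse 2. Member transcripts called ranged from 6 to 14 in TDD against CD. In TDD+ABX against TDD they ranged from 0 (without CD mouse 1 and without most other mice) to 5 (without CD mouse 2). All transcripts called there ranged from 120 to 331 (without TDD+ABX mouse 3 and mouse 5). In TDD+ABX against CD+ABX, Oas1c ranged from -0.047 to 0.14 and Oas1e from -0.63 to 0.49. In CD+ABX against CD, Oas1a ranged from -0.31 to 0.17, Oas1b from -0.30 to 0.076, Oas1e from -0.26 to 0.69, Oas1g from -0.24 to 0.27 and Oasl2 from -0.24 to 0.22. Oas1c ranged from -0.17 to 0.10 in TDD+ABX against TDD and from -0.053 to 0.23 in TDD against CD+ABX, and Oas1e from -0.30 to 0.60 in TDD+ABX against CD.

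The labels do not say whether the replicate numbers pair the mice. Of 30 same-numbered pairs, 5 correlated above 0.1 in their deviations from the group means (from -0.355 to 0.248). Among the 20 mice, 4 matched their own number best. These correlations cannot decide whether the mice were paired, as a weak shared effect could go unseen. With the numbers as a replicate block, 6 members were called in TDD against CD, Oasl2 no longer among them, beside 240 genes, and 27 genes were called in TDD+ABX against CD+ABX. Oas1e rests on at most 131 counts in any mouse, and CD mouse 2 widened the CD spread of all members.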
